A study of Mus musculus with 8 samples.

Results

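The contractile and actin cytoskeleton genes are a set of 36 mouse genes that encode actins, the proteins that coat and bundle actin filaments, non-muscle and smooth muscle myosin, adhesion and crosslinking proteins, the intermediate filament proteins vimentin and desmin, and the regulators Srf and Mrtfa. They were chosen by name from 21951 protein-coding genes of the GENCODE annotation of mm10. Each locus was the gene body plus 20 kb on each side. Peaks within 2 kb of a transcription start of a member were promoter peaks, and peaks more than 2 kb from any annotated start were distal peaks. No member's locus overlapped another's, and together they spanned 3.0 Mb. The median locus of 56.3 kb was near the 57.4 kb of all protein-coding genes. Within the set, 14 genes are best known from muscle (called muscle-type here) and 22 are used in most cell types.

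The peaks came from CUT&Tag, in which an antibody tethers a transposase to its target so that the DNA around it is cut out and sequenced. Mouse embryonic fibroblasts carrying an Oct4-GFP reporter were infected with retroviruses that drive the introduced genes and were collected at day 5 in reprogramming medium, 1 arm with Oct4 and Nanog (NanogWT) and 1 with Oct4 and NanogN70 (NanogBiD), in which the N-terminal domain of SS18 that binds BRG1 is fused to NANOG. The antibodies were against the FLAG tag on NANOG, BRG1 (the motor subunit of BAF, which slides and evicts nucleosomes), H3K27ac (a mark of active promoters and enhancers) and H3K4me1 (a mark of enhancers). Each of the 8 groups was 1 merged library, so no difference between arms could be set against the spread between cultures, and no test was made. A weaker peak and a peak in fewer cells cannot be told apart in such libraries.

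Fibroblasts keep actin under tension through stress fibres, bundles in which myosin slides along actin and which end in adhesions. Many of these genes are transcribed by SRF, which binds the CArG box, together with MRTFA, which enters the nucleus when free actin is used up. The somatic cytoskeleton is rebuilt when fibroblasts are reprogrammed to pluripotent cells.

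Most member promoters with a peak had it in both arms, as did most genes. FLAG was in both arms at 25 of the 32 members with a promoter FLAG peak (78.1%, against 85% of protein-coding genes with one). BRG1 was in both at 27 of 29 (93.1%, against 85.2%), H3K27ac at 30 of 32 (93.8%, against 90.7%) and H3K4me1 at 29 of 34 (85.3%, against 85.6%). The 9 other BRG1 promoters were 7 muscle-type genes with no BRG1 peak in either arm and 2 genes, Cnn2 and Flnc, with a promoter peak in NanogWT alone, of which Cnn2 turned on the promoter limit. Counted by gene over all of its starts, no member had promoter BRG1 in NanogBiD alone, a class that held 8.72% of the protein-coding genes with a promoter BRG1 peak. Single regions in NanogBiD alone, in introns of Cnn3, Myh9 and Flna, are counted below. At Flna the arms had BRG1 in neighbouring but separate regions, the one with NanogWT at the start and the one with NanogBiD 1725 bp from it, so its count as both arms, and its change in height, compare different regions. All 22 broadly used members had promoter BRG1 in NanogWT, Cnn2 only by the edge of a peak.

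Away from promoters BRG1 had 47 peaks with NanogWT and 60 with NanogBiD in the member loci, which gives a ratio of 1.28 (95% interval, 0.857 to 1.91). Over all distal peaks the BRG1 ratio was 2.19, above the upper end of that interval. For FLAG the member loci held 76 and 83 distal peaks, a ratio of 1.09 (0.790 to 1.51), against 1.33 over all distal peaks. The H3K27ac numbers were 57 and 58, a ratio of 1.02 (0.694 to 1.49) against 1.29. Distal H3K4me1 had 97 and 64 peaks, a ratio of 0.660 (0.474 to 0.914) against 0.750. At the members' own promoters FLAG had a ratio of 1.02 (42 and 43 peaks), BRG1 0.949 (39 and 37), H3K27ac 0.975 (40 and 39) and H3K4me1 0.816 (49 and 40), each below the ratio over all promoter peaks (1.11, 1.19, 1.09 and 0.886) but with an interval that held it. The promoter H3K4me1 ratio was above the list with peaks of score 100 or more, at 1.11 (0.566 to 2.17) against 0.829. It was also above it with the 20000 highest-scoring peaks, at 1.67 (0.776 to 3.74) against 1.13. Intervals here and below cover counting error only. Those of peak number ratios treat the arms as independent, although many sites had a peak in both. The counts by region below take shared sites into account. The depth of the libraries is unknown, and a deeper library gives more peaks, so a ratio is read against that over the whole list. With peaks of score 100 or more, the distal BRG1 ratio was 2.0 (1.07 to 3.90) in the member loci, an interval that holds the 2.90 over all distal peaks. The same was true with the 20000 highest-scoring peaks of each library, at 0.857 (0.431 to 1.69) against 1.26, and with 5 kb on each side of the gene, at 1.33 (0.810 to 2.22) against 2.19. In the 5 other settings tried the interval left out the ratio of the list.

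**Figure D1:**
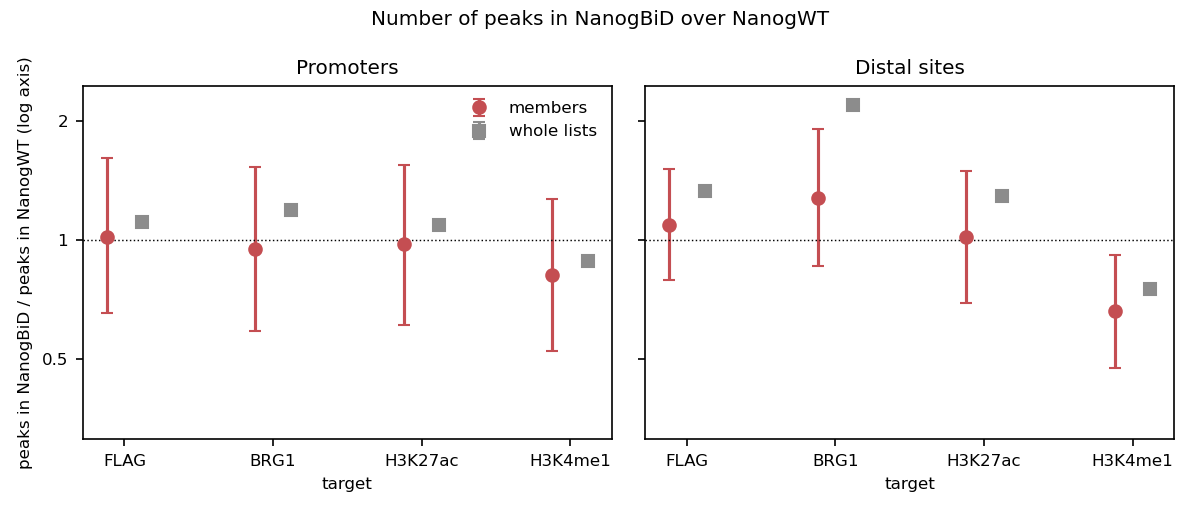
Number of peaks in NanogBiD divided by the number in NanogWT (log axis) for each target, at promoters (left) and distal sites (right). Red circles are the 36 members with exact binomial 95% intervals and grey squares are the whole lists; the distal BRG1 ratio of the members, 1.28, lies below the 2.19 of the whole list.

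Whole-library facts bear on these counts as follows. The lists held 30859 to 74782 peaks, with a lowest score of 50 in each. An H3K27ac peak stood at the promoter of 7 of 8 fibroblast marker genes in both arms. Markers of other cell types with promoter H3K27ac numbered 0 of 5 in NanogWT and 1 of 5 in NanogBiD (Krt8) for epithelium, 0 and 1 of 6 (Tdgf1) for pluripotent cells, 1 and 3 of 4 for endothelium, 2 and 3 of 4 for blood, and 0 and 1 of 5 (Myog) for skeletal muscle precursors. Their part in the results was not tested. Within the member loci another 31 to 46 peaks per library lay at promoters of other genes and were not counted.

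The DNA at the regions that separated the classes is shown before their values. Distal regions with FLAG and BRG1 peaks were ranked by the lower of their scores, and the first of each class are printed as 151 bases centred on the taller FLAG summit (GRCm38, plus strand), where the factor's tags piled up. Capitals mark matches to TGANTCA, a loose form of the AP-1 site, or to the TEAD consensus GGAATG, searched on both strands. The loose form allows any middle base, whereas the stricter AP-1 site has G or C there. Of the printed AP-1 matches, those of Actg2 and Tpm1 fit only the loose form, and that of Vim fits both. None of the sequences searched for contains another. The Actg2 and Mrtfa windows had FLAG and BRG1 in NanogBiD alone, the Actn1 window in NanogWT alone, and the Tpm1 and Vim windows in both arms. The next window of the NanogWT class, in Mylk (chr16:35001003-35001153), is not printed and held 1 AP-1 match.
Actg2, upstream, chr6:83546191-83546341: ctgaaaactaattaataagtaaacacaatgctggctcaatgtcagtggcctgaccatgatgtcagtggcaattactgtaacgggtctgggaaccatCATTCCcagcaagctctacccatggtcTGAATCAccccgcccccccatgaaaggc
Mrtfa, intron, chr15:81055487-81055637: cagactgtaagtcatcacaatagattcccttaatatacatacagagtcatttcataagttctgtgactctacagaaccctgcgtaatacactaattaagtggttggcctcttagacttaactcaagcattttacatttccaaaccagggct
Actn1, intron, chr12:80230287-80230437: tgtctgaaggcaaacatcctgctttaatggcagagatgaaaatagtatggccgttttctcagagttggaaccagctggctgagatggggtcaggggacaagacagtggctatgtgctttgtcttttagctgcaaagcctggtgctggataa
Tpm1, downstream, chr9:67003162-67003312: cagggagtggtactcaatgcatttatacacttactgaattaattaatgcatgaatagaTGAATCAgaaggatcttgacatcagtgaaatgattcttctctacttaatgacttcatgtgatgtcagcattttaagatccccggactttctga
Vim, upstream, chr2:13558690-13558840: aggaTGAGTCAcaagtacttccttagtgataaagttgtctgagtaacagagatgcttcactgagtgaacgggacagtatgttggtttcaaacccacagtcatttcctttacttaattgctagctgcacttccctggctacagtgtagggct

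Over the 112 distal FLAG regions of the member loci, 23 windows (20.5%, 14.1 to 28.9) held an AP-1 match, against 15.8% of all 66853 distal FLAG regions. AP-1 is the dimer of FOS and JUN proteins that occupies many fibroblast enhancers. All AP-1 shares, here and at promoters, are of the loose form, and the stricter site was not counted apart. In the 46 regions with FLAG in both arms 14 windows (30.4%, 19.1 to 44.8) matched, against 17.9% of all such regions. In those with FLAG in NanogBiD alone 5 of 36 matched (13.9%, 6.08 to 28.7, against 15.8%), and in those with FLAG in NanogWT alone 4 of 30 (13.3%, 5.31 to 29.7, against 10.4%). A TEAD match was found in 14 (12.5%, 7.59 to 19.9) against 11%, and the octamer ATGCAAAT, the OCT4 consensus, in 2 (1.79%) against 3.73%. The CArG box occurred in 2 windows (1.79%, 0.491 to 6.28) against 0.784%.

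At promoters the CArG box was found in some of the members. RefSeq promoter sequences, 250 bases before to 50 after a start, were matched for 32 of the 36 genes, and 8 (25%) held a CArG box on either strand, against 1.75% of 16522 protein-coding genes. The 8 were Acta1, Actc1, Actg1, Cnn2, Myl6, Myl9, Srf and Vcl. Actb, Actg2, Tagln and Myh11 had no matched promoter sequence and were not searched. Only full matches were counted, which left out ccctatatgg in the Acta2 promoter. A gene outside the 8 therefore need not lack a CArG box. A TEAD match was in 14 of 32 (43.8%) against 15.2%, an AP-1 match in 4 (12.5%) against 8.15%, and an octamer in 1, Srf (3.12%), against 1.85%. A match describes letters and not occupancy. The 120 bases before the RefSeq start of 4 of these genes (GRCm38.p6, printed on the minus strand, 5′ to 3′) follow, with the CArG box in capitals. Srf and Actg1 had BRG1 at the promoter in both arms, whereas Acta1 and Actc1 had neither FLAG nor BRG1 there in either arm.
Srf, chr17:46556163-46556282: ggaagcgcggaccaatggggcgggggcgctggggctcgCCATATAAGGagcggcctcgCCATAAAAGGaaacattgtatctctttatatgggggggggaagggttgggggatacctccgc
Actg1, chr11:120348496-120348615: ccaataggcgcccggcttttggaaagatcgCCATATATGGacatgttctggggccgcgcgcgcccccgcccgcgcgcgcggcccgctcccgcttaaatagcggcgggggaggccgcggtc
Acta1, chr8:123894776-123894895: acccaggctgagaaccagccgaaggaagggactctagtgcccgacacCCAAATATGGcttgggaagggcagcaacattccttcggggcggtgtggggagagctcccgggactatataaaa
Actc1, chr2:114052876-114052995: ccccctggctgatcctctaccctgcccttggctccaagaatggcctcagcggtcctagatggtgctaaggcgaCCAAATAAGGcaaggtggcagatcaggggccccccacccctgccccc

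**Figure D2:**
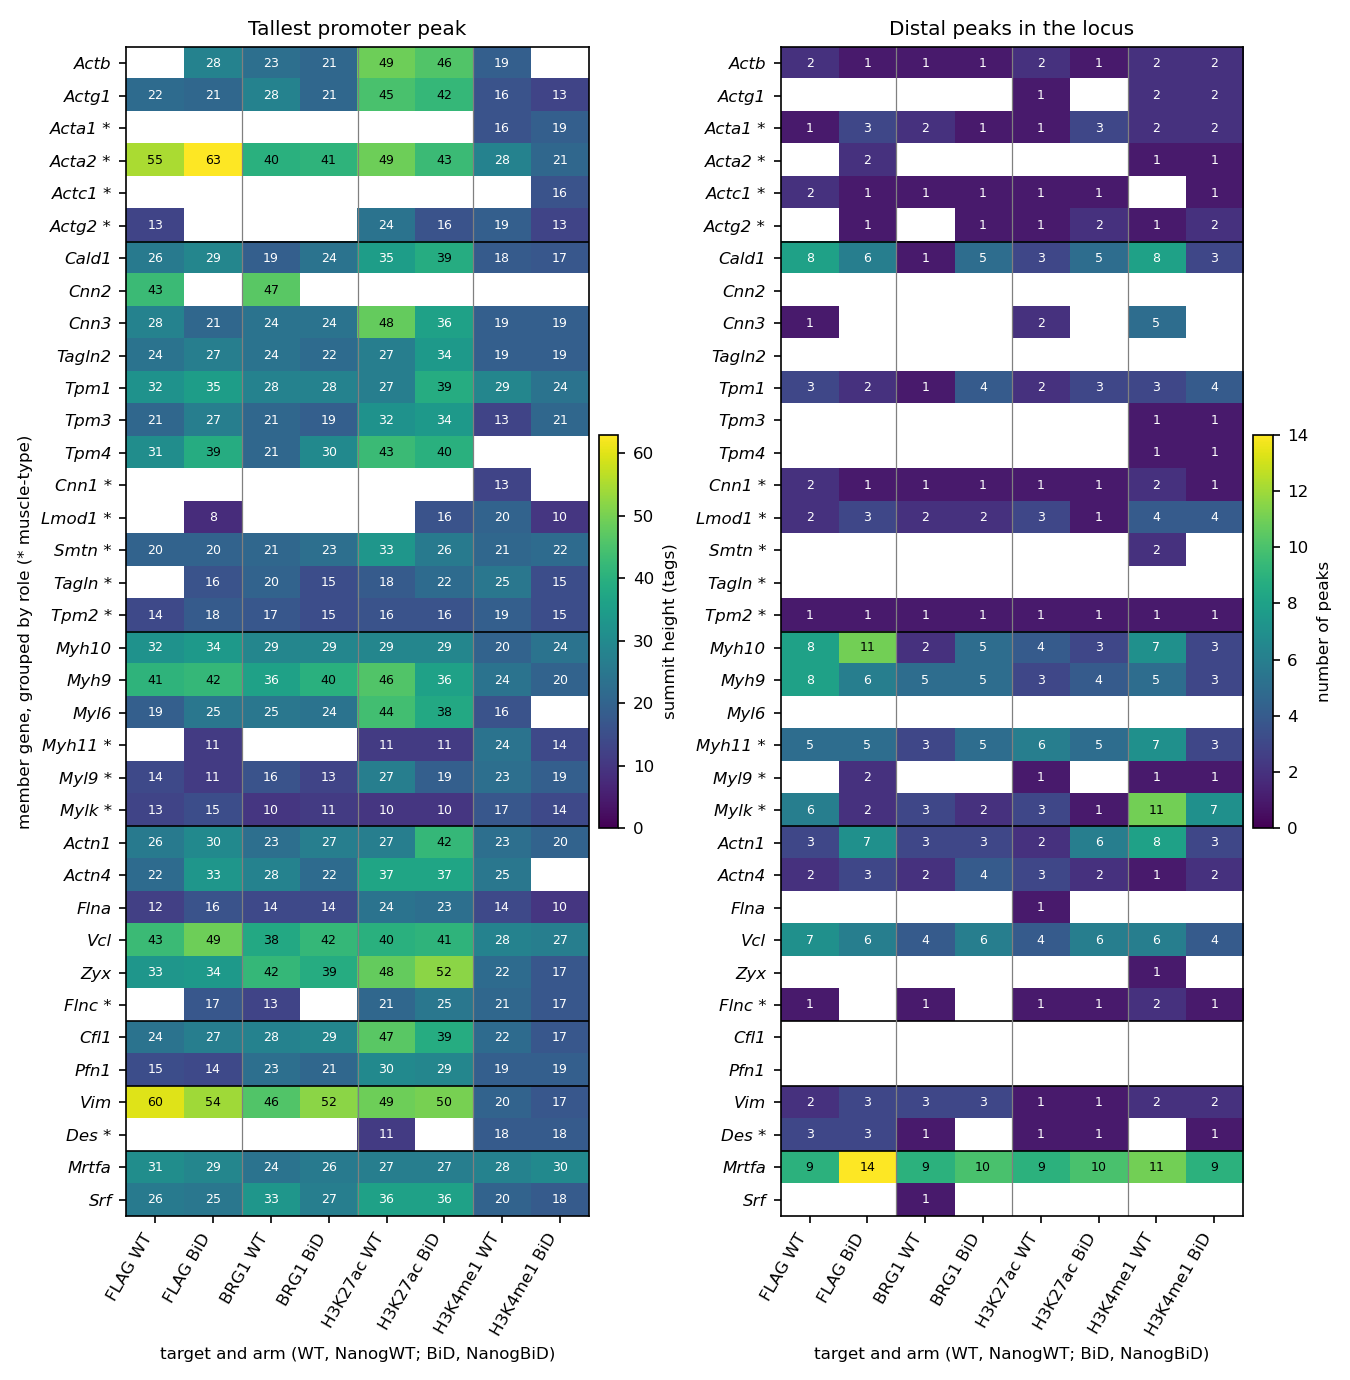
Each row is a member gene, grouped by role, and each column a library. The left panel gives the summit height in tags of the tallest promoter peak and the right panel the number of distal peaks; white cells had no peak, and the broadly used genes fill most of the left panel in both arms.

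The actins are the filament itself. Actb and Actg1 encode the cytoplasmic actins of every cell, Acta2 and Actg2 those of smooth muscle, and Acta1 and Actc1 those of skeletal and heart muscle. Summit heights are given as tags in NanogWT and then NanogBiD. Acta2 had the tallest FLAG promoter peak of the 36 in NanogBiD, at 55 and 63 tags, with 40 and 41 for BRG1, 49 and 43 for H3K27ac, and 28 and 21 for H3K4me1. Its promoter was thus occupied to a like height in both arms. At Actb the FLAG peak was in NanogBiD alone with 28 tags, while BRG1 was 23 and 21, H3K27ac 49 and 46, and H3K4me1 19 in NanogWT with no peak in NanogBiD. Actg2 lacked BRG1 at its promoter, had FLAG in NanogWT alone (13 tags), and had H3K27ac at 24 and 16 and H3K4me1 at 19 and 13. The striated muscle actins stood apart. Acta1 had H3K4me1 as its only promoter mark, at 16 and 19 tags, and Actc1 had H3K4me1 in NanogBiD alone, at 16 tags.

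Distal sites of the actin loci were few, with 5 FLAG peaks in NanogWT and 8 in NanogBiD and 4 BRG1 peaks in each arm. Acta1 had 1 and 3 distal FLAG peaks, 2 and 1 for BRG1, 1 and 3 for H3K27ac, and 2 in each arm for H3K4me1. Acta2 had 2 distal FLAG peaks in NanogBiD alone, both of 9 tags, and 1 H3K4me1 peak in each arm. The upstream region of Actg2 printed above, chr6:83545615-83546821, lay 10001 bp from the nearest Actg2 start and had no peak of any target in NanogWT. In NanogBiD it held FLAG at 27 tags, BRG1 at 20, H3K27ac at 14 and H3K4me1 at 13. It ranked first of the 15 distal member regions with both proteins in NanogBiD alone. An upstream region of Actc1, 6626 bp from a start, had FLAG at 20 and 34 tags and BRG1 at 6 and 27. Actb had 2 and 1 distal FLAG peaks, 1 BRG1 peak in each arm, 2 and 1 for H3K27ac, and 2 in each arm for H3K4me1. Actc1 had the same numbers for FLAG and BRG1, with 1 H3K27ac peak in each arm and 1 H3K4me1 peak in NanogBiD alone.

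Tropomyosins, calponins, transgelins, caldesmon, smoothelin and leiomodin lie along the thin filament, where they steady it or set how myosin reaches it. Tagln, a common marker of smooth muscle, had promoter FLAG in NanogBiD alone (16 tags), with BRG1 at 20 and 15, H3K27ac at 18 and 22, and H3K4me1 at 25 and 15. Tpm2 had all 4 targets in both arms, with FLAG at 14 and 18, BRG1 at 17 and 15, H3K27ac at 16 in each, and H3K4me1 at 19 and 15. Smtn likewise had all 4, with FLAG at 20 in each arm, BRG1 at 21 and 23, H3K27ac at 33 and 26, and H3K4me1 at 21 and 22. These 3 smooth muscle genes held promoter BRG1 in both arms. By contrast Cnn1, a late smooth muscle gene, had only an H3K4me1 peak of 13 tags in NanogWT. Lmod1, which seeds new actin filaments in smooth muscle, had FLAG (8 tags) and H3K27ac (16 tags) in NanogBiD alone and H3K4me1 at 20 and 10. Neither had promoter BRG1.

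The Cnn2 call turned on the edge of a peak. Its FLAG peak of 43 tags in NanogWT reached to 1980 bp from the start and the overlapping NanogBiD peak of 53 tags to 2179 bp, and for BRG1 the peaks of 47 and 46 tags reached to 1939 and 2395 bp. Thus the same region was occupied in both arms at like heights, and only the 2 kb limit separated them. In NanogBiD these peaks were counted at the promoter of another gene. Cnn2 had no promoter H3K27ac or H3K4me1 peak and no distal peak of any target in either arm. None of the other promoter calls in 1 arm had a peak of the other arm overlapping it.

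Cald1 and Tpm1 held the difference in distal BRG1 peaks of the thin filament genes. Cald1 encodes caldesmon, which tethers actin to myosin, and its promoter had FLAG at 26 and 29, BRG1 at 19 and 24, H3K27ac at 35 and 39, and H3K4me1 at 18 and 17. Distal FLAG peaks in its locus numbered 8 and 6, BRG1 1 and 5, H3K27ac 3 and 5, and H3K4me1 8 and 3. In 3 intronic regions of Cald1 FLAG was called in both arms and BRG1 in NanogBiD alone. Their FLAG heights were 16 and 20, 18 and 23, and 22 and 30 tags, and BRG1 in NanogBiD reached 12, 17 and 20. Tpm1 had 1 and 4 distal BRG1 peaks. The region downstream of it printed above had all 4 targets in both arms, with FLAG at 26 and 48 tags and BRG1 at 24 and 32. Over the 12 thin filament loci there were 17 and 13 distal FLAG peaks and 6 and 13 BRG1 peaks. The BRG1 ratio of 2.17 (0.768 to 6.95) was the largest of the role groups. Its interval, which treats the arms as independent, holds both 1 and the ratio of the whole list. By region, 5 of 13 were shared, 8 were in NanogBiD alone and 0 in NanogWT alone. Of all distal BRG1 regions 59.3% were in NanogBiD alone and 10.1% in NanogWT alone. Lmod1 had 2 and 3 distal FLAG and 2 BRG1 peaks in each arm, Cnn1 2 and 1 FLAG and 1 BRG1 in each, Tpm2 1 of each in each arm, and Tagln and Smtn none of either.

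Myosin supplies the force. Myh9 and Myh10 encode the heavy chains of non-muscle myosin, Myh11 that of smooth muscle, Myl6 and Myl9 light chains, and Mylk the kinase that switches the light chain on. Myh9 had tall promoter peaks in both arms, with FLAG at 41 and 42 tags, BRG1 at 36 and 40, H3K27ac at 46 and 36, and H3K4me1 at 24 and 20. Myh10 had 32 and 34 for FLAG and 29 in each arm for both BRG1 and H3K27ac, with H3K4me1 at 20 and 24. Their distal sites differed. Myh10 had 8 and 11 distal FLAG peaks, 2 and 5 for BRG1, 4 and 3 for H3K27ac, and 7 and 3 for H3K4me1. Myh9 had 8 and 6 FLAG, 5 BRG1 in each arm, 3 and 4 H3K27ac, and 5 and 3 H3K4me1 peaks.

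Mylk had the largest decrease in distal FLAG and BRG1 peaks of the 36 loci. Distal FLAG peaks numbered 6 in NanogWT and 2 in NanogBiD, BRG1 3 and 2, H3K27ac 3 and 1, and H3K4me1 11 and 7. An intronic Mylk region, chr16:34865905-34867091, had FLAG at 19, BRG1 at 9 and H3K27ac at 11 tags in NanogWT and no peak of the 4 targets in NanogBiD. Another Mylk region at chr16:35000873-35001716, in an untranslated exon, had FLAG at 7, BRG1 at 11 and H3K4me1 at 14 tags in NanogWT alone, but H3K27ac, at 11 tags, in NanogBiD alone. The tallest promoter peaks of Mylk, with FLAG at 13 and 15, BRG1 at 10 and 11, H3K27ac at 10 in each and H3K4me1 at 17 and 14, were alike in both arms. A further Mylk promoter region, in an intron, had FLAG in NanogBiD alone, at 9 tags. At Myh11 the promoter had FLAG in NanogBiD alone (11 tags), no BRG1, H3K27ac at 11 in each and H3K4me1 at 24 and 14. Distal Myh11 sites were richer, with 5 FLAG peaks in each arm, 3 and 5 for BRG1, 6 and 5 for H3K27ac and 7 and 3 for H3K4me1, among them a region of chr16:14307286-14309126, upstream, with FLAG at 27 and 26 tags and BRG1 at 18 and 22. Myl9 had FLAG at 14 and 11, BRG1 at 16 and 13, H3K27ac at 27 and 19 and H3K4me1 at 23 and 19 at its promoter, and 2 distal FLAG peaks in NanogBiD alone. Myl6 had FLAG at 19 and 25, BRG1 at 25 and 24, H3K27ac at 44 and 38, H3K4me1 at 16 in NanogWT alone, and no distal peak.

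Crosslinkers bind filaments to each other and to adhesions: alpha-actinins (Actn1, Actn4), filamins (Flna, Flnc), vinculin (Vcl) and zyxin (Zyx). Actn1 had promoter FLAG at 26 and 30, BRG1 at 23 and 27, H3K27ac at 27 and 42, and H3K4me1 at 23 and 20. Its distal FLAG peaks numbered 3 and 7, with 3 BRG1 peaks in each arm, 2 and 6 for H3K27ac, and 8 and 3 for H3K4me1. Of its BRG1 sites 1 was shared, 2 were in NanogWT alone and 2 in NanogBiD alone. The Actn1 intron window printed above lay in chr12:80228911-80231637, with FLAG at 15 and BRG1 at 13 tags in NanogWT alone but H3K27ac at 23 and 14 and H3K4me1 at 25 and 17 in both arms. Another intronic Actn1 region had FLAG at 29 and BRG1 at 20 in NanogBiD alone. Actn4 had promoter FLAG at 22 and 33, BRG1 at 28 and 22, H3K27ac at 37 in each arm and H3K4me1 at 25 in NanogWT alone, and 2 and 4 distal BRG1 peaks beside 2 and 3 for FLAG. Its distal H3K27ac peaks numbered 3 and 2, the tallest 40 and 16 tags, and its distal H3K4me1 peaks 1 and 2.

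Flnc, the filamin of striated muscle, was the 1 gene whose promoter had FLAG in NanogBiD alone and BRG1 in NanogWT alone. The FLAG peak had 17 tags and the BRG1 peak 13, and they were separate regions, the first 439 bp and the second 1622 bp from a start. H3K27ac was 21 and 25 there and H3K4me1 21 and 17. Flnc had 1 distal peak of FLAG and 1 of BRG1 in NanogWT and none in NanogBiD, with 1 distal H3K27ac peak in each arm and 2 and 1 for H3K4me1. Vcl, with promoter FLAG at 43 and 49 and BRG1 at 38 and 42, had 3 distal regions with both proteins in NanogBiD alone and 1 with both in NanogWT alone. Zyx, with FLAG at 33 and 34 and BRG1 at 42 and 39, and Flna had no distal FLAG or BRG1 peak.

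Among the remaining genes, the filament turnover factors Cfl1 and Pfn1 had all 4 targets at the promoter in both arms and no distal peak of any target. Vim, the intermediate filament gene of mesenchymal cells, had the tallest promoter FLAG peak in NanogWT (60 and 54 tags), with BRG1 at 46 and 52. The printed upstream window of Vim lay 15162 bp from the start, where FLAG was 35 and 48 and BRG1 17 and 33 tags. Des, its counterpart in muscle, lacked promoter FLAG and BRG1 in both arms and had H3K27ac in NanogWT alone (11 tags) and H3K4me1 at 18 in each. Distal Des sites held 3 FLAG peaks in each arm, 1 BRG1 peak in NanogWT alone, 1 H3K27ac peak in each arm and 1 H3K4me1 peak in NanogBiD alone.

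The regulators had all 4 targets at their promoters in both arms. Srf had FLAG at 26 and 25, BRG1 at 33 and 27, H3K27ac at 36 in each arm and H3K4me1 at 20 and 18, and its only distal peak was a BRG1 peak of 11 tags in NanogWT. Mrtfa had FLAG at 31 and 29, BRG1 at 24 and 26, H3K27ac at 27 in each and H3K4me1 at 28 and 30. It had more distal FLAG and BRG1 peaks than any other member in both arms, with 9 and 14 (FLAG), 9 and 10 (BRG1), 9 and 10 (H3K27ac) and 11 and 9 (H3K4me1). Of its distal regions 6 had both proteins in both arms and 3 in NanogBiD alone. The printed Mrtfa window, 10016 bp from a start, had FLAG at 21, BRG1 at 17, H3K27ac at 15 and H3K4me1 at 16 tags in NanogBiD and no peak in NanogWT. A further Mrtfa intron region at chr15:81080706-81081902 had FLAG at 21, BRG1 at 17 and H3K27ac at 14 in NanogBiD alone.

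**Figure D3:**
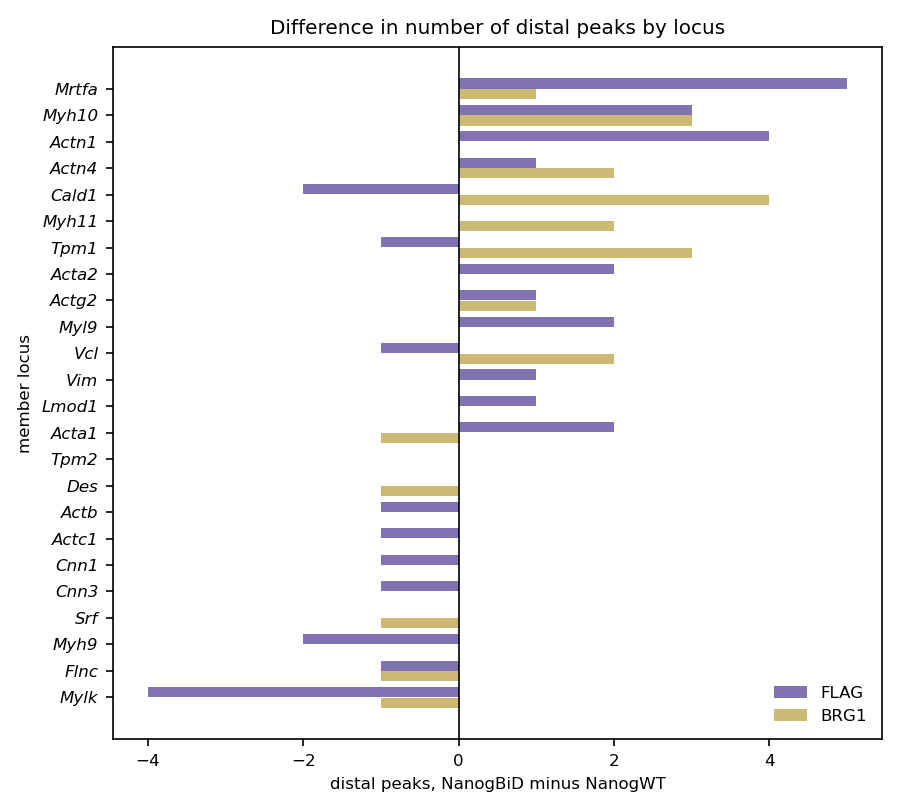
Number of distal FLAG (purple) and BRG1 (yellow) peaks in NanogBiD minus NanogWT for the 24 loci with any such peak. Mrtfa and Myh10 lie at the top with 6 more peaks and Mylk at the bottom with 5 fewer.

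Counted by gene, the direction was mixed. Of 23 members with a distal FLAG peak, 10 had more in NanogBiD (43.5%, against 53.0% of 13865 protein-coding genes with such a peak) and 10 had fewer (43.5%, against 17.1%). For BRG1, 8 of 21 had more (38.1%, against 63.9% of 11815) and 5 had fewer (23.8%, against 11.5%). Promoter FLAG was in NanogBiD alone at 5 of 32 members with the peak, namely Actb, Tagln, Myh11, Flnc and Lmod1 (15.6%, against 8.77% of genes), and in NanogWT alone at 2, Actg2 and Cnn2 (6.25%, against 6.18%). Promoter BRG1 was in NanogWT alone at 2 of 29 (6.90%, against 6.11%). Des was the 1 of 32 genes with promoter H3K27ac in NanogWT alone (3.12%, against 2.35%) and Lmod1 the 1 in NanogBiD alone (3.12%, against 7.0%). For H3K4me1, Actb, Cnn1, Myl6 and Actn4 had it in NanogWT alone (4 of 34, 11.8%, against 8.15%) and Actc1 in NanogBiD alone (2.94%, against 6.28%). These promoter counts are 0 to 5 genes each.

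The same comparison was made by region, after peaks of both arms were merged. Distal BRG1 regions in NanogBiD alone were 29 of 73 in the member loci (39.7%, 29.3 to 51.2) against 59.3% of all distal BRG1 regions, and those in NanogWT alone 13 (17.8%, 10.7 to 28.1) against 10.1%. For distal FLAG 36 of 112 were in NanogBiD alone (32.1%, 24.2 to 41.3, against 37.9%) and 30 in NanogWT alone (26.8%, 19.5 to 35.7, against 17.1%). The intervals of these shares left out the values of the lists, except that of FLAG in NanogBiD alone, but not under every setting. With the 20000 highest-scoring peaks these intervals held the list, and FLAG in NanogWT alone lay below it, at 15% (5.24 to 36) against 28.1%, as did BRG1 in NanogBiD alone, at 25% (12.7 to 43.4) against 41.1%. With peaks of score 100 or more BRG1 in NanogWT alone also lay below the list, at 3.03% (0.537 to 15.3) against 5.99%. With heights of 15 tags or more both NanogWT-only intervals held the list, FLAG at 16.9% (9.48 to 28.5) against 15.2% and BRG1 at 16.2% (7.65 to 31.1) against 7.85%. Distal H3K27ac regions were in NanogBiD alone in 20 of 76 (26.3%, 17.7 to 37.2, against 37.1%) and in NanogWT alone in 19 (25%, 16.6 to 35.8, against 18.6%). The first interval ended near the share of the list and left it out in 4 of the other settings. Distal H3K4me1 regions were in NanogBiD alone in 17 of 113 (15%, against 19.3%) and in NanogWT alone in 50 (44.2%, against 39.9%). The H3K4me1 intervals, 9.61 to 22.8 and 35.4 to 53.4, held the shares of the whole list, although with 50 kb on each side the NanogBiD-only share was 11.3% (7.61 to 16.6) against 19.3%.

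At promoters, BRG1 regions in NanogBiD alone were 3 of 40 (7.50%, 2.58 to 19.9) against 23.7% of all promoter BRG1 regions, and those in NanogWT alone 3 (7.50%, against 9.49%). The first interval held the share of the list in 3 of 7 other settings. These were protein-coding starts only, where the list had 18.5%, peaks of score 100 or more, at 13.8% (5.5 to 30.6) against 23.0%, and the 20000 highest-scoring peaks, at 0% (0 to 11.4) against 8.74%. With those 20000 peaks BRG1 in NanogWT alone lay above the list, at 36.7% (21.9 to 54.5) against 29.1%. For promoter FLAG the shares were close to the list, with 10 of 51 in NanogBiD alone (19.6%, against 20.5%) and 7 in NanogWT alone (13.7%, against 11.7%). Promoter H3K27ac regions were in NanogBiD alone in 3 of 44 (6.82%, against 15.2%) and in NanogWT alone in 5 (11.4%, against 7.69%). For H3K4me1 the numbers were 4 of 51 (7.84%, against 12.4%) and 12 (23.5%, against 22%). The H3K4me1 shares turned round with the 20000 highest-scoring peaks. They were then 45.5% (26.9 to 65.3) against 25.9% in NanogBiD alone and 9.09% (2.53 to 27.8) against 16.5% in NanogWT alone.

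The fusion carries the BRG1-binding domain, so the regions where NANOG sat in both arms ask whether BRG1 was called there with the fusion alone. In the member loci 46 distal regions had FLAG in both arms. BRG1 was in both arms at 29 of them (63.0%, 48.6 to 75.5), in NanogBiD alone at 6 (13%, 6.12 to 25.7), in NanogWT alone at 3 (6.52%, 2.24 to 17.5) and in neither at 8 (17.4%, 9.09 to 30.7). Of all 30016 such distal regions, 36.9% had BRG1 in both arms, 40.4% in NanogBiD alone, 3.36% in NanogWT alone and 19.3% in neither. Within protein-coding loci the first pair of shares was 39.1% and 38.5%. BRG1 was thus called with NanogWT at a larger share of the members' shared NANOG regions, with all peaks counted. The 6 regions lay in 3 loci, Cald1 (3), Myh10 (2) and Tpm1 (1). The 29 were spread over 17 loci, with 6 in Mrtfa, 4 in Myh9 and 3 in Myh11.

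Shared FLAG peaks of the members were taller than those of the list, with medians of 18 and 20 tags against 15 and 18, so the comparison was repeated above a fixed height. Among shared regions with a NanogWT FLAG height of 15 or more, BRG1 was in NanogBiD alone at 5 of 30 in the member loci (16.7%, 7.34 to 33.6) and at 33.6% of all, the upper end of that interval. At a height of 20 or more it was at 1 of 18 (5.56%, 0.988 to 25.8) against 26.5%. The share depended on which peaks were counted. With peaks of score 100 or more it was 9 of 26 (34.6%, 19.4 to 53.8) in the member loci and 44.6% of all. With the 20000 highest-scoring peaks it was 3 of 12 (25%, 8.89 to 53.2) against 33.1%. In both settings the interval of the members holds the share of the list, and in the 7 others it does not.

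**Figure D4:**
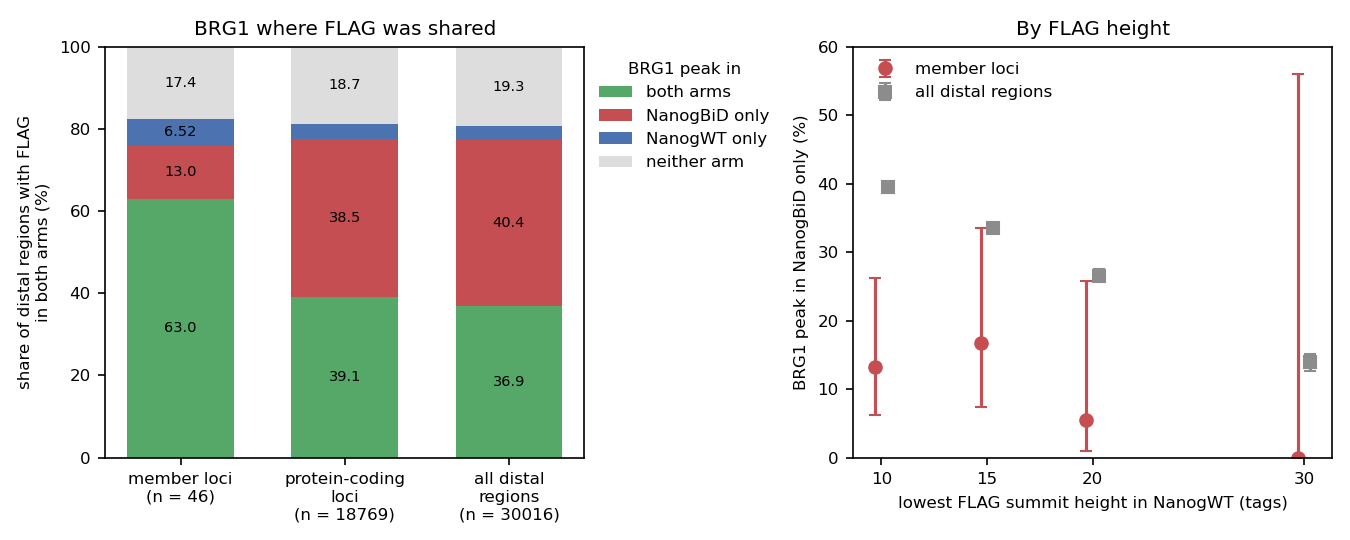
Left, shares (%) of distal regions with FLAG in both arms by the arm with a BRG1 peak, for member loci, protein-coding loci and all distal regions. Right, the share with BRG1 in NanogBiD only among regions above each FLAG height, with Wilson 95% intervals; member loci stood at 13.3% from a height of 10 and all regions at 39.5%.

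Regions with FLAG in 1 arm only were set beside the list in the same way. Of 36 distal regions with FLAG in NanogBiD alone, 15 (41.7%, 27.1 to 57.8) also had BRG1 in NanogBiD alone, against 35.5% of all. Another 3, in Acta1 and Mrtfa, had BRG1 in NanogWT alone (8.33%, 2.87 to 21.8), against 1.46%. The 15 lay in Actg2, Actn1, Actn4, Lmod1, Mrtfa, Myh10, Myh11 and Vcl. Of 30 with FLAG in NanogWT alone, 24 (80.0%, 62.7 to 90.5) had no BRG1 in either arm, against 80.4%, and 4 (13.3%, 5.31 to 29.7) had BRG1 in NanogWT alone, against 9.39%. These 4 were in Mylk, Actn1 and Vcl.

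Heights were compared at regions with peaks in both arms, as log2 of NanogBiD over NanogWT after subtraction of the median over all shared regions of the target (FLAG 0.15, BRG1 0.14, H3K27ac 0.08, H3K4me1 -0.18). At distal sites the member medians were 0.08 (-0.08 to 0.31) with FLAG, 0.00 (-0.31 to 0.25) with BRG1, -0.08 with H3K27ac and -0.09 with H3K4me1. All distal regions had medians of 0.02, 0.18, 0.00 and -0.03, each within the interval of the members. With 5 kb on each side the BRG1 interval left the list out, at -0.24 (-0.49 to 0.14) against 0.18. The distal H3K27ac median changed sign with peaks of score 100 or more, at 0.27 (-0.15 to 0.45) against -0.01. So it did with the 20000 highest-scoring peaks, at 0.22 (-0.21 to 0.36) against 0.00. At promoters the member medians were 0.02, -0.14, -0.08 and -0.02 in the same order, against -0.03, -0.14, 0.00 and 0.03. For promoter H3K27ac the members' interval, -0.27 to -0.05, lay below the value of the list. With scores in place of heights it did not, at -0.07 (-0.25 to 0.18) against 0.00. No promoter of a member differed by 2-fold in the centred height of its tallest peak, for any target with a peak in both arms. The tallest peaks of the arms were different regions for BRG1 at Flna and for FLAG at Actg1. The promoter changes ran from -0.55 to 0.38 for BRG1 and from -0.57 to 0.43 for FLAG.

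A few distal sites differed in height. After centring, shared BRG1 regions at least 2-fold taller in NanogBiD numbered 3 of 31 in the member loci (9.68%, against 7.66% of all shared distal BRG1 regions) and none was 2-fold shorter (against 0.822%). For FLAG 1 of 46 was taller (2.17%, against 5.76%) and 1 shorter (2.17%, against 3.94%). The 3 BRG1 regions were the upstream region of Actc1, at 6 and 27 tags, a region downstream of Myh11, at 10 and 27, and a region downstream of Myh9, at 13 and 29. All 3 had FLAG in both arms. The taller FLAG region lay downstream of Myh11, at 13 and 30 tags, and the shorter one in an intron of Mrtfa, at 27 and 9. In tags as deposited, before centring, an intronic Actn1 BRG1 region (13 and 28) and FLAG regions of Tpm1 (13 and 26) and Myh9 (11 and 22) also reached 2-fold.

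**Figure D5:**
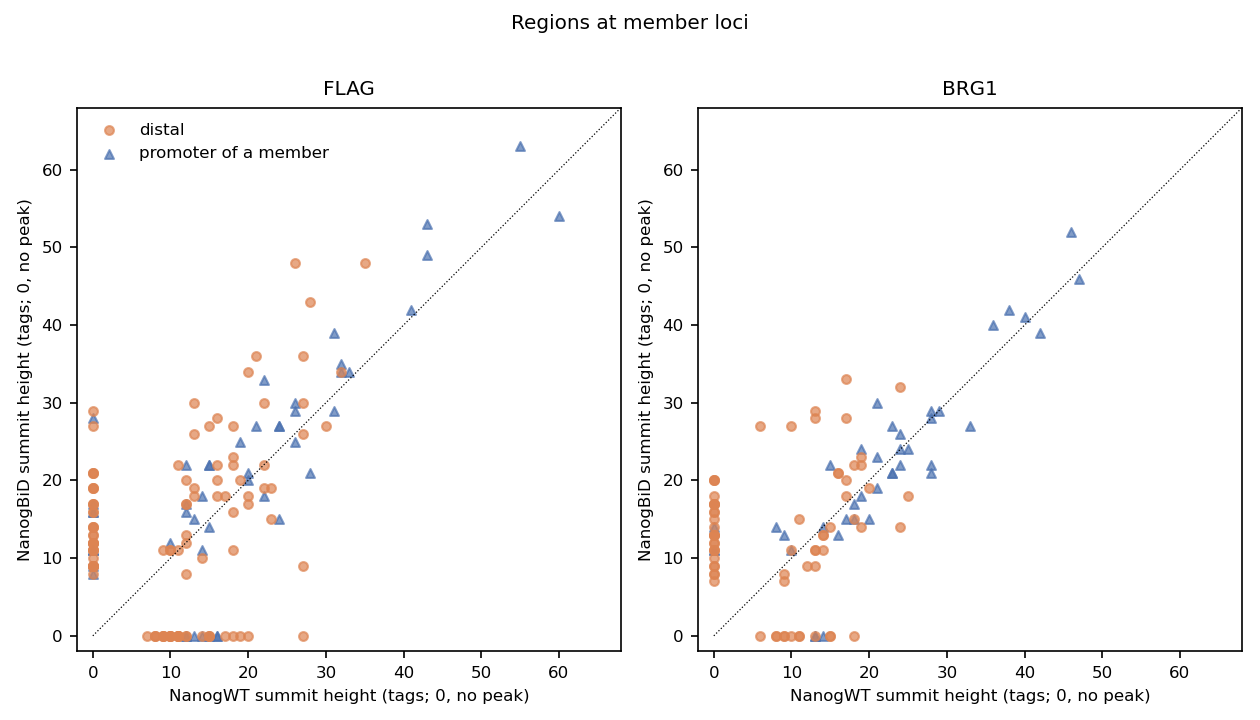
Summit height in tags in NanogWT (x axis) and NanogBiD (y axis) for each FLAG or BRG1 region of the member loci, with 0 where an arm had no peak; orange circles are distal and blue triangles promoter regions of members. Most promoter regions lie along the dotted line of equal height, and distal regions fill both axes.

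For the histone marks at these sites, FLAG and BRG1 peaks of both arms were merged together, which left some regions joined to a promoter and out of the count. Of the 119 distal regions with FLAG or BRG1 in any arm, 73 (61.3%) lay in an intron and the median distance to a start of the gene was 14.8 kb. H3K27ac overlapped 45 of them in NanogWT and 54 in NanogBiD (37.8% and 45.4%, against 24.9% and 33.4% of all such regions). H3K4me1 overlapped 57 and 48 (47.9% and 40.3%, against 44.1% and 39.1%). At the 27 regions with BRG1 in NanogBiD alone, H3K27ac was at 5 in NanogWT and 14 in NanogBiD, with 9 gained (33.3%) and none lost. At all such regions the shares were 15% and 37.9%, with 25.8% gained and 3.0% lost. The 12 with BRG1 in NanogWT alone had H3K27ac at 7 in each arm (58.3%), against 45.0% in NanogWT and 30.9% in NanogBiD at all such regions. Distal H3K27ac peaks that overlapped H3K4me1 in the same arm formed 50 regions, of which 22 were shared, 18 (36%, against 26%) were in NanogWT alone and 10 (20%, against 32.5%) in NanogBiD alone.

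Promoter occupancy was also counted for muscle-type and broadly used members. BRG1 was at the promoter of 7 of 14 muscle-type members in NanogWT and 6 in NanogBiD, and at 22 and 21 of 22 broadly used members. Among the broadly used members only Cnn2, at the promoter limit, differed between arms. Of all protein-coding genes 53.9% had it in NanogWT and 55.5% in NanogBiD. FLAG was at 6 and 9 of the muscle-type promoters and at 21 of the broadly used ones in each arm, beside 55.2% and 56.8% of all protein-coding genes. Distal BRG1 peaks of the muscle-type loci numbered 15 and 14, a ratio of 0.933 (0.417 to 2.07), and those of the broadly used loci 32 and 46, a ratio of 1.44 (0.896 to 2.33). These intervals overlap. For the distal H3K4me1 ratio, 0.735 (0.421 to 1.27) and 0.619 (0.404 to 0.937), the same holds.

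A list of 47 other genes of the actin and SRF pathway (among them Mrtfb, Rhoa, Rock1, Rock2, Tln1, Pxn, Fhl2, Ccn1 and Ccn2), taken by pathway membership, was set beside the members. Their loci held 171 and 217 distal FLAG peaks (ratio 1.27, 1.03 to 1.56), 91 and 156 for BRG1 (1.71, 1.32 to 2.25), 112 and 115 for H3K27ac (1.03, 0.785 to 1.34, beside 1.02 for the members and 1.29 for the list) and 190 and 149 for H3K4me1 (0.784, 0.629 to 0.977). Distal BRG1 regions in NanogBiD alone were 93 of 182 (51.1%), against 59.3% of all and 39.7% in the member loci. Of their 120 shared distal FLAG regions, 43 (35.8%, 27.8 to 44.7) had BRG1 in NanogBiD alone, against 40.4% of all and 13% in the member loci. Their promoter peak ratios were 1.36 (0.948 to 1.95) with FLAG, 1.10 (0.764 to 1.59) with BRG1, 1.03 (0.720 to 1.48) with H3K27ac and 0.831 (0.578 to 1.19) with H3K4me1, against 1.11, 1.19, 1.09 and 0.886 over the lists.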

How the data were processed

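Mouse fibroblasts at day 5 of reprogramming were profiled by CUT&Tag for 4 targets in 2 arms. Per the labels and methods, the authors trimmed reads with Trim Galore 0.6.4, aligned them to mm10 with Bowtie2 2.4.5, used SAMtools 1.16.1 to drop mitochondrial reads and those of repeats or low mapping quality, merged replicates and called peaks with MACS 1.4.2, with duplicate tags reduced to a single one. No control library was named. The study states a general minimum of replication for its experiments, and the number of replicates merged into each of these libraries is not given in the sources used here. The score in the deposited peak lists is the caller's significance score. The signal in the deposited summit lists is the tag pileup (summit height), which the authors did not scale to depth. The labels name the fusion arm NanogN70, and its identity with NanogBiD comes from the study's text.

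Peaks and summits were joined by name (Python 3.11.15, pandas 2.3.3, SciPy 1.17.1) and placed on GENCODE release M21, with peaks of both arms merged when they overlapped by at least 1 bp. Chromosome lengths fitted GRCm38. Regions of FLAG and BRG1 in both arms were also merged together. Ratios of peak numbers carry exact binomial and shares Wilson 95% intervals, medians the order statistic interval. The binomial interval takes no account of sites with a peak in both arms. These cover counting error only, and the total tag number is unknown. Alternatives were 5 or 50 kb around genes, promoters of 1 kb, protein-coding starts only, placement by summit, merging across 500 bp, score and height limits, the 20000 highest-scoring peaks, heights not centred and scores in place of heights. Placement and merging were tested on simulated data. Promoter values in all 8 libraries were given for members with a promoter peak in 1 arm only, for the muscle-type members and for Srf and Mrtfa, and distal counts too for the 5 largest increases and 5 largest decreases in distal FLAG and BRG1 peaks together (ties by the larger count). The 3 highest-ranked regions of each class were named. Members, lists and rules were chosen with earlier results of these data known. Other values are named as examples and were chosen after they were seen.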

Additional observations from a re-analysis of the deposited data

How the results depend on the processing

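Of the values recomputed under alternatives, 241 stayed within their 95% interval and 32 left it. None of the 33 values moved so far with promoters of 1 kb, protein-coding starts only or placement by summit, nor the 25 recomputed with merging across 500 bp, nor the 17 that depend on the flank with 5 or 50 kb. A value that stayed can still lose its difference from the whole list. Of 7 values whose interval left out that of the list, each held it in 1 to 4 settings, given beside the results or here: at score 100 or more distal FLAG in NanogWT only (24.5% against 18.3%), and at 5 kb distal BRG1 in NanogWT only (18.4% against 10.1%). Conversely, some intervals that held the list left it out in another setting. This was so for distal H3K27ac in NanogBiD only with heights of 15 tags or more (22.5% against 37.8%), 5 kb (23.5% against 37.1%), protein-coding starts (25.9% against 36.6%) and placement by summit (26.2% against 36.6%), for distal H3K27ac in NanogWT only with protein-coding starts (27.1% against 18.2%), and for promoter H3K4me1 in NanogBiD only with the 20000 highest-scoring peaks. Below, shares are of the member regions in 1 arm only, with that of the list in brackets, and the cause of each move was not tested. With peaks of score 100 or more the distal ratio was 2.0 (2.90) for BRG1 and 0.464 (0.574) for H3K4me1. The NanogBiD-only share was then 51.5% (67.7) for distal BRG1 and 20.8% (12.9) for promoter H3K4me1, and the NanogWT-only share 3.03% (5.99) for distal BRG1, 58.1% (51.3) for distal H3K4me1, 6.67% (13) for promoter FLAG and 12.5% (27.6) for promoter H3K4me1. The centred distal H3K27ac height change was 0.27 (-0.01), and BRG1 in NanogBiD alone made up 34.6% (44.6) of the shared distal FLAG regions. With the 20000 highest-scoring peaks per library, which sets all lists to 1 size, the promoter H3K4me1 ratio was 1.67 (1.13) and the distal H3K27ac height change 0.22 (0.00). The NanogBiD-only share was 25% (41.1) for distal BRG1, 27.3% (28.6) for distal H3K4me1, 10.5% (15.1) for promoter FLAG, 0% (8.74) for promoter BRG1 and 45.5% (25.9) for promoter H3K4me1. The NanogWT-only share was 15% (28.1) for distal FLAG, 35.7% (25.2) for distal BRG1, 36.4% (27.8) for distal H3K27ac, 36.7% (29.1) for promoter BRG1 and 9.09% (16.5) for promoter H3K4me1. With heights of 15 tags or more, the NanogWT-only share was 16.9% (15.2) for distal FLAG, 57.4% (56.7) for distal H3K4me1 and 0% (6.20) for promoter H3K27ac, and the NanogBiD-only share 0% (23.4) for promoter BRG1. Without centring FLAG had a promoter height change of 0.17 (0.12), BRG1 of 0.00 (0.00), H3K27ac of 0.00 (0.08) and H3K4me1 of -0.20 (-0.15), and the distal H3K4me1 change -0.27 (-0.21). With scores in place of heights the promoter H3K4me1 change was 0.17 (0.05).

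No analysis paired by culture was possible because no group had more than 1 merged library. For the same reason the spread between cultures is unknown, and intervals cover counting error alone. The number of tags per library is unknown too, and a missing peak is one below the calling limit. Heights are not scaled to depth, no control library was named, and a peak within 20 kb of a gene need not act on it.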
